A study of Mus musculus with 4 samples.

Results

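Notch signaling genes were examined in mesenchymal stem cells (MSCs) from the bones of mice with B-cell acute lymphoblastic leukemia (B-ALL), called L-MSCs, and in MSCs of healthy mice, called control MSCs. The 9 genes were taken by symbol from the expression table of 17457 genes: the ligand gene *Jag1*, the ligand-like *Dlk1*, the receptor genes *Notch1*, *Notch2* and *Notch3*, the glycosyltransferase gene *Lfng* and the target genes *Hes1*, *Hey1* and *Heyl*. All 9 were in the table, and 7 were abundant enough to be compared between the groups. None of these 7 passed the thresholds of the comparison. *Notch2* was the most abundant of the 9 on average in both groups, and *Hes1* was high in a single L-MSC library. The *Dlk1* values of L-MSCs were above those of control MSCs, as they had to be for *Dlk1* to be compared at all.

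RNA-sequencing covered 2 libraries of L-MSCs and 2 libraries of control MSCs, each from cells pooled over 4 to 7 female C57BL/6J mice. Mice destined to develop leukemia were injected through the tail vein, at 7 to 9 weeks of age, with 1000 cells of PER-M60, a BCR-ABL1+ pre-B ALL line, and were taken when the leukemia burden was high. These cells carry BCR-ABL1 and mCherry from a retrovirus. Control mice were injected with PBS and were taken at the matching time, and the labels name no other agent or allele for either group. A single leukemia line was used, so that each group stands for 1 model, and pooling leaves the spread between single mice unmeasured. MSCs were sorted from digested bone, after flushing of the marrow, as CD45-, TER119- and CD31- cells with Sca-1 and PDGFRα on their surface. The transcripts of both positive markers were abundant, with *Ly6a*, which encodes Sca-1, at 1702 and 1985 FPKM in L-MSCs and at 1056 and 1711 FPKM in control MSCs. *Pdgfra* was at 87.1 and 93.0 FPKM in L-MSCs and at 66.8 and 72.7 FPKM in control MSCs, and all 12 MSC marker genes listed passed the filter on low values. Summed FPKM was 588926 and 574662 in the L-MSC libraries and 571471 and 559601 in the control libraries. The study gives read totals only as a range over its samples, so that the reads behind a single FPKM are not known and no interval for counting error could be given.

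In Notch signaling, a ligand on one cell binds a receptor on its neighbor, the receptor is cut by ADAM10 and then by γ-secretase, and the freed intracellular domain enters the nucleus. There it joins the DNA-binding protein RBPJ and a Mastermind coactivator and switches on genes such as those of the Hes and Hey repressors. In the bone marrow the pathway is known for the Jagged1 that stromal cells present to blood cell progenitors, for the dependence of marginal zone B cells on Notch2, and for holding skeletal progenitors back from becoming osteoblasts. FPKM, a fragment count scaled to transcript length and to the mapped fragments of the library, is corrected for length, so that levels can be set side by side between genes.

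Levels of the 9 genes reached 27.0 FPKM, for *Hes1* in L-MSC replicate 2, and were as low as 0.17 FPKM, for *Lfng* in control replicate 1. In L-MSCs the order of the means was *Notch2*, *Hes1*, *Hey1*, *Dlk1*, *Jag1*, *Heyl*, *Notch3*, *Lfng* and *Notch1*, and for all 8 pairs of neighbors in this order the libraries overlapped. In control MSCs it was *Notch2*, *Jag1*, *Hes1*, *Hey1*, *Notch3*, *Heyl*, *Notch1*, *Dlk1* and *Lfng*, where 6 of the 8 neighboring pairs overlapped. The pairs that did not overlap in control MSCs were *Notch2* and *Jag1*, and *Jag1* and *Hes1*. For the comparison of the groups, FPKM were scaled between libraries by the median of ratios, and genes that reached an FPKM of 1 in 2 or more libraries were tested on log2(FPKM + 1) with limma. A gene was called where its p, adjusted by Benjamini-Hochberg over all 11056 genes tested, did not exceed 0.05 and its log2 fold change was 1 or more, or -1 or less. By these thresholds 2.43% of the genes tested were higher in L-MSCs and 2.65% were lower, and of the 7 Notch genes tested limma called 0 in either direction. At an unadjusted p of at most 0.05 there were 2 of the 7, *Dlk1* and *Hes1*, where the share over all genes tested was 21.2%. Both scaled L-MSC libraries lay above both control libraries for 3 of the 7 (*Dlk1*, *Notch2* and *Hes1*) and below them for 1 (*Jag1*), against 24.8% above and 27.2% below over all genes tested. *Dlk1* is in both of these counts, but it reached the filter only through its L-MSC libraries, so that its direction was fixed in advance. With 2 libraries against 2, an exact permutation test of a single gene cannot go below 0.333, so that every p here rests on the spread that limma pools over genes.

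**Figure D1:**
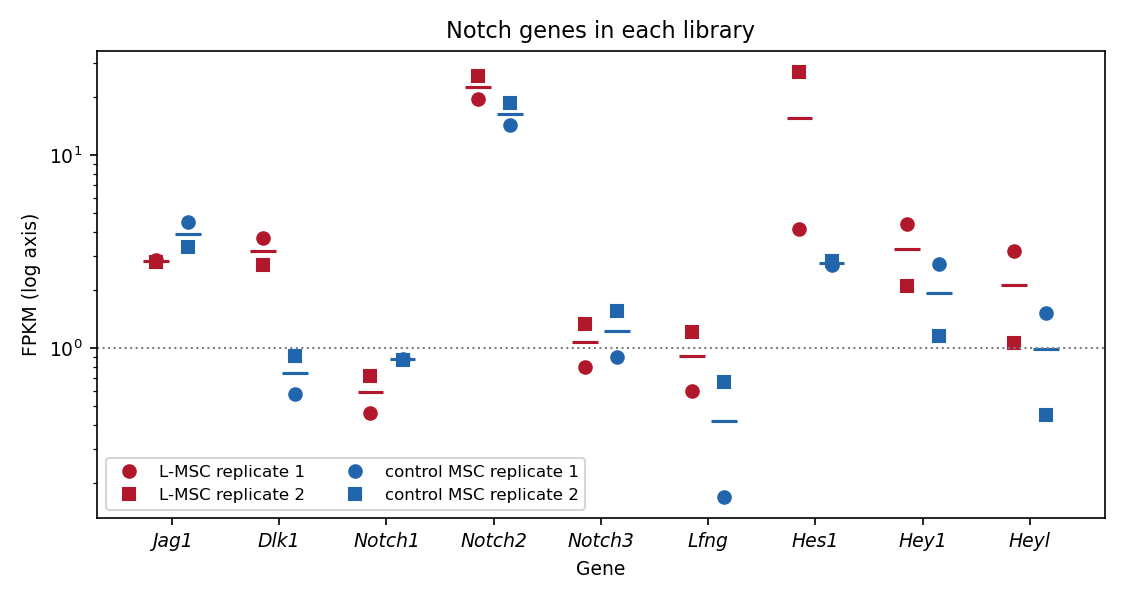
FPKM of the 9 Notch genes (log axis) in the 2 L-MSC libraries (red) and the 2 control libraries (blue), with circles for replicate 1, squares for replicate 2, short bars for group means and a dotted line at an FPKM of 1. *Notch2* lies above 14 FPKM in all 4 libraries, the *Dlk1* points of the groups lie on either side of 1, and *Hes1* has 1 L-MSC library at 27.0 FPKM with the other 3 libraries from 2.71 to 4.13.

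*Notch2*, on chromosome 3 of GRCm38.p6 from 98013538 to 98150367, made up most of the receptor transcripts. It was at 19.7 and 25.6 FPKM in L-MSCs and at 14.3 and 18.5 FPKM in control MSCs. The groups did not overlap, but the lowest L-MSC library and the highest control library were close. The log2 fold change was 0.34 (95% interval -0.23 to 0.90, adjusted p = 0.490 from limma), and the call did not change under any of the alternatives run. *Notch2* held 92.6% and 92.4% of the summed FPKM of the 4 Notch receptor genes in L-MSCs, and 88.7% and 88.4% in control MSCs. The share was thus a few points higher in each L-MSC library. In bulk libraries, fewer cells of a type and less RNA per cell cannot be told apart, here and in all that follows.

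*Notch1*, on chromosome 2 from 26457902 to 26503822, encodes the receptor that directs T cell fate. Its level was low, with 0.46 and 0.72 FPKM in L-MSCs and 0.88 and 0.87 FPKM in control MSCs. Both L-MSC libraries were below both control libraries, and none reached the filter. In a fit that kept all genes above 0, its log2 fold change was -0.29 (95% interval -0.75 to 0.18, adjusted p = 0.528 from limma). *Notch3*, on chromosome 17 from 32120820 to 32166896, encodes a receptor best known from the mural cells of blood vessels. It was at 0.80 and 1.34 FPKM in L-MSCs and at 0.90 and 1.56 FPKM in control MSCs. The groups overlapped, and replicate 2 was higher than replicate 1 in both. The log2 fold change was -0.16 (95% interval -0.98 to 0.66, adjusted p = 0.849 from limma) and became 0.01 without L-MSC replicate 1. GENCODE M21 places a gene on the opposite strand over *Notch3* and 2 such genes over *Notch1*. The counting is not stated to use strand, so that reads of these pairs may be mixed. On the same strand it places a microRNA gene over *Notch1* and 2 genes over *Notch2*, whose reads could not be separated by strand. *Notch4*, an endothelial receptor gene outside the 9, was at 0.31 and 0.05 FPKM in L-MSCs and at 0.04 and 0 FPKM in control MSCs.

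Cell types that are known for *Notch1*, *Notch3* and *Notch4* were looked for by their markers. Of 12 endothelial markers, 9 were below an FPKM of 1 in all 4 libraries, *Tie1*, *Vwf* and *Cldn5* were listed at 0 in all 4, and the summed level was 8.82 and 8.15 FPKM in L-MSCs and 6.40 and 7.31 FPKM in control MSCs. Of 12 mural cell markers 8 were tested and 0 called by limma, against 2.43% higher and 2.65% lower over all genes tested. The summed level of the 12 was 64.8 and 70.2 FPKM in L-MSCs and 89.1 and 80.8 FPKM in control MSCs. *Cspg4* and *Acta2* were the highest of them. *Cspg4* was at 18.1 and 23.5 FPKM in L-MSCs and at 25.4 and 47.0 FPKM in control MSCs. *Acta2* overlapped, at 18.4 and 23.1 FPKM in L-MSCs and at 27.3 and 13.1 FPKM in control MSCs. Lower markers lay the other way from *Cspg4*. *Kcnj8* was at 1.35 and 1.23 FPKM in L-MSCs and at 0.25 and 0.30 FPKM in control MSCs. *Abcc9* was at 0.95 and 0.50 FPKM in L-MSCs and at 0.10 and 0.01 FPKM in control MSCs. Mural transcripts were thus present in every library, and their part in the *Notch3* values was not tested. Among 13 hematopoietic markers measured, 6 were below an FPKM of 1 in all 4 libraries, and *Ptprc*, which encodes CD45, was listed at 0 in both L-MSC libraries and was at 0 and 0.02 FPKM in control MSCs. The B-lineage genes *Cd79a* and *Cd79b* were at 1.27 and 1.43 FPKM in L-MSC replicate 1, at 0.47 and 0 FPKM in L-MSC replicate 2 and at most at 0.58 FPKM in the control libraries. *Vpreb1*, of the same list, was above 1 FPKM in control MSCs too, at 2.59 and 1.37 FPKM in L-MSCs and at 1.11 and 1.12 FPKM in control MSCs. *Coro1a* overlapped, at 4.88 and 0.55 FPKM in L-MSCs and at 1.47 and 0.64 FPKM in control MSCs. The summed hematopoietic level was 76.6 and 66.1 FPKM in L-MSCs and 44.7 and 46.0 FPKM in control MSCs. Most of it came from *Ebf1*, a factor of B cells that stromal cells of the marrow also express, with 56.4 and 57.6 FPKM in L-MSCs and 30.2 and 25.5 FPKM in control MSCs. *Lyz2*, a myeloid gene of the same list, lay the other way, at 7.87 and 5.72 FPKM in L-MSCs and at 11.8 and 18.1 FPKM in control MSCs, and did not pass (adjusted p = 0.0655 from limma).

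**Figure D2:**
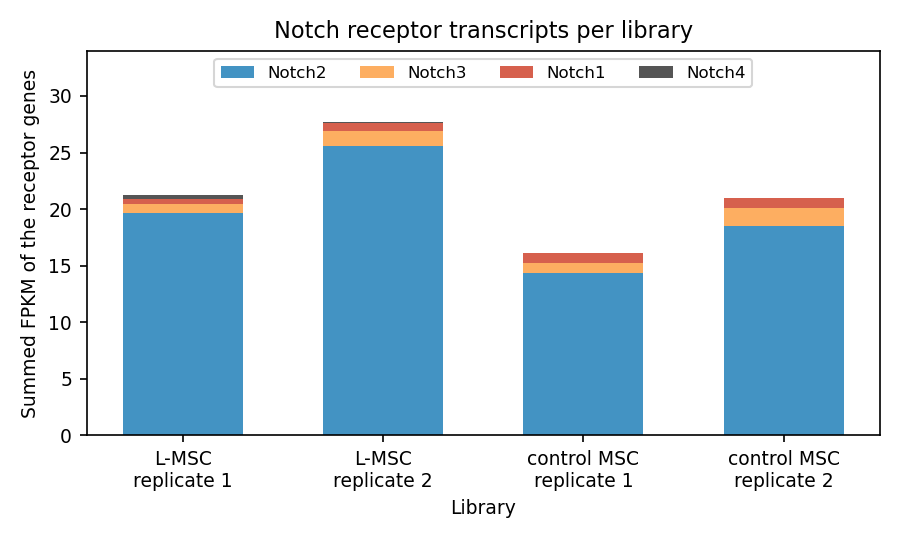
Summed FPKM of *Notch1*, *Notch2*, *Notch3* and *Notch4* in each library, with 1 stacked bar per library. *Notch2* fills from 88.4% to 92.6% of each bar.

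*Jag1*, on chromosome 2 from 137081451 to 137116520, encodes Jagged1, a ligand of the Notch receptors. It was at 2.86 and 2.78 FPKM in L-MSCs and at 4.49 and 3.33 FPKM in control MSCs. Both L-MSC libraries were below both control libraries. The log2 fold change was -0.43 (95% interval -1.15 to 0.29, adjusted p = 0.490 from limma), and it ranged from -0.63 to -0.25 over the alternatives. The other classical ligand genes were near the floor of the table. *Dll3* was listed at 0 in all 4 libraries. *Jag2* was listed at 0 in both L-MSC libraries and was at 0.01 and 0.29 FPKM in control MSCs, and *Dll4* was at 0.05 FPKM in L-MSC replicate 2 and listed at 0 in the other libraries. *Dll1* was listed at 0 and at 0.18 FPKM in L-MSCs and was at 0.70 and 0.19 FPKM in control MSCs. *Jag1* was thus the only gene of a classical Delta or Jagged ligand at an FPKM of at least 1 in any of the 4 libraries.

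*Dlk1*, on chromosome 12 from 109452485 to 109463336, encodes the preadipocyte factor Pref-1, an imprinted membrane protein that resembles Delta ligands but lacks the domain with which they engage Notch receptors. It was at 3.70 and 2.68 FPKM in L-MSCs and at 0.58 and 0.91 FPKM in control MSCs. The groups did not overlap, with means of 3.19 ± 0.721 FPKM in L-MSCs and 0.745 ± 0.233 FPKM in control MSCs (SD, n = 2 each). The log2 fold change was 1.20 (standard error 0.35, 95% interval 0.42 to 1.98), with an unadjusted p = 0.00662 and an adjusted p = 0.0815 from limma, and did not pass. *Dlk1* reached the filter only through the L-MSC libraries, so that it had to be higher there to be tested at all. Without either L-MSC library it was under the filter and gave no value, and without a control library its log2 fold change was 1.07 or 1.33 (adjusted p = 0.248 and 0.145).

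*Lfng*, on chromosome 5 from 140607341 to 140615545, encodes lunatic fringe, which adds a sugar to Notch and tunes its response to Delta and Jagged ligands. It was at 0.60 and 1.21 FPKM in L-MSCs and at 0.17 and 0.67 FPKM in control MSCs. The groups overlapped, and *Lfng* was under the filter. In the fit that kept all genes above 0, where no gene passed, its log2 fold change was 0.39 (95% interval -0.33 to 1.11, adjusted p = 0.583 from limma). Of its paralogs, *Mfng* was listed at 0 in all 4 libraries and *Rfng* was at 17.5 and 23.0 FPKM in L-MSCs and at 12.5 and 15.9 FPKM in control MSCs. *Rfng* thus had the highest level of the 3 fringe genes in each library, with a log2 fold change of 0.38 (adjusted p = 0.436 from limma).

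Promoters were searched for the motif of RBPJ, TGGGAA, on both strands. Promoters of 6 of the 9 genes were read, from RefSeq (GRCm38.p6), and those of *Hes1*, *Hey1* and *Heyl* were not analysed here. The motif was searched in the 250 bases before the transcript start. It was found in 1 of the 6, *Lfng*, and in 21.6% of the 32851 windows of this length over all genes. In *Lfng* the matches begin 135 and 108 bases before the start, and the second is part of the longer form GTGGGAA, which 5.42% of all windows hold. The windows of *Notch1*, *Notch3*, *Dlk1*, *Notch2* and *Jag1* held no such letters, which says nothing about binding of RBPJ elsewhere. The *Notch1* window, 26503823 to 26504072, lies inside the gene of GENCODE M21, which reaches to 26516663, so that it is not a promoter by that annotation. The *Jag1* window, 137116521 to 137116770, lies partly inside its gene, which reaches to 137116644. The *Dlk1* window, 109452573 to 109452822, ends before its gene of GENCODE M21, which starts at 109452823. By the RefSeq position given above, which starts at 109452485, it lies inside the gene, so that it is not a promoter by that position. Printed here are the sequences of *Lfng*, the promoter that holds the motif, and of *Notch2* and *Jag1*, the receptor and classical ligand with the highest levels. Each runs 5′ to 3′ on the strand of the gene, stops before the first base that GENCODE M21 assigns to the gene, and has matches to the motif in capitals. The *Lfng* window is chr5:140607091-140607319 on the plus strand, the *Notch2* window is chr3:98013288-98013526 on the plus strand and the *Jag1* window is chr2:137116645-137116770 on the minus strand.
*Lfng*: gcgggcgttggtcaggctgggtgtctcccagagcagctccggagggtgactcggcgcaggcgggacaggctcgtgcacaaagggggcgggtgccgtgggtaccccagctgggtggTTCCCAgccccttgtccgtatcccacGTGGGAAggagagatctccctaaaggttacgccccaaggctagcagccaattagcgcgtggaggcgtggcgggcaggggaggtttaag
*Notch2*: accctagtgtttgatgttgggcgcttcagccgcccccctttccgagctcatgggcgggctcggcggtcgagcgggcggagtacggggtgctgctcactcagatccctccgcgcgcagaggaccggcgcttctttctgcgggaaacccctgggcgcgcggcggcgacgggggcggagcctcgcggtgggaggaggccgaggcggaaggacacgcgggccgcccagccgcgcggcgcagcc
*Jag1*: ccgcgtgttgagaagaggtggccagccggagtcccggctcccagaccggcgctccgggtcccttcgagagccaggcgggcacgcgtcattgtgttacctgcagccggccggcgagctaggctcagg

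*Hes1*, on chromosome 16 from 30065357 to 30067796, encodes a repressor of the basic helix-loop-helix family that Notch induces in many tissues and that other signals can induce as well. It was at 4.13 and 27.0 FPKM in L-MSCs and at 2.71 and 2.83 FPKM in control MSCs. Both L-MSC libraries were above both control libraries, but replicate 1 was close to the controls and replicate 2 was 6.53 times replicate 1. The mean was 15.6 ± 16.2 FPKM in L-MSCs and 2.77 ± 0.0849 FPKM in control MSCs (SD, n = 2 each), so that the spread within L-MSCs exceeded their mean. On the scale of the test, replicate 2 exceeded replicate 1 by 2.40, and 13 of the 11056 genes tested, *Hes1* included, had a difference at least as large in that direction. The log2 fold change between the groups was 1.58 (standard error 0.61, 95% interval 0.21 to 2.95), with an unadjusted p = 0.0276 and an adjusted p = 0.175 from limma, and did not pass. Without L-MSC replicate 2 it was 0.38 (adjusted p = 0.631). Without L-MSC replicate 1 it was 2.78 and passed (adjusted p = 1.21e-04), in a fit that called 2.08% of genes higher and in which the lone L-MSC library is assumed to vary like the controls.

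**Figure D3:**
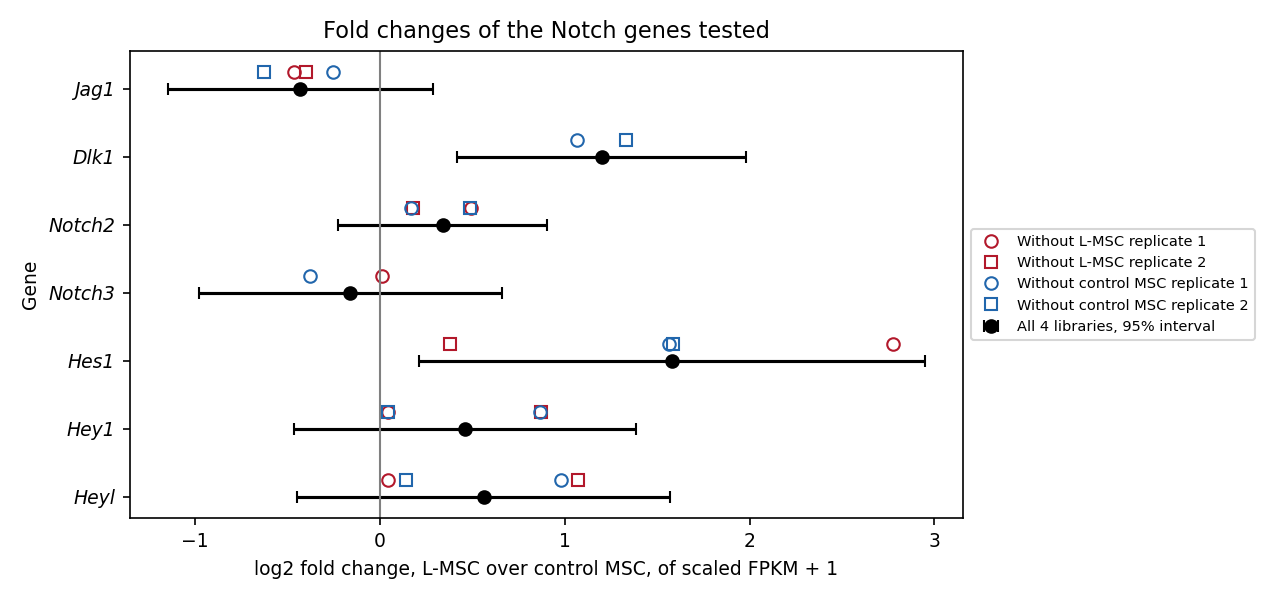
Log2 fold change of L-MSCs over control MSCs for the 7 Notch genes tested, on the scale of scaled FPKM + 1, with 95% intervals from limma (black) and the value when 1 library is left out (open symbols, red for L-MSC and blue for control, circles for replicate 1 and squares for replicate 2). *Hes1* moves from 0.38 to 2.78 with the L-MSC library that is left out, and where a symbol is missing the gene was under the filter without that library.

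*Hey1* and *Heyl* encode related repressors, on chromosome 3 from 8663359 to 8667038 and on chromosome 4 from 123233556 to 123249870. *Hey1* was at 4.41 and 2.11 FPKM in L-MSCs and at 2.72 and 1.16 FPKM in control MSCs. *Heyl* was at 3.18 and 1.06 FPKM in L-MSCs and at 1.52 and 0.45 FPKM in control MSCs. For both genes the groups overlapped and the order of the libraries was the same, with L-MSC replicate 1 first, then control replicate 1, L-MSC replicate 2 and control replicate 2. Log2 fold changes were 0.46 for *Hey1* (95% interval -0.46 to 1.39, adjusted p = 0.581 from limma) and 0.56 for *Heyl* (95% interval -0.45 to 1.57, adjusted p = 0.528). Without 1 library they ran from 0.04 to 0.87 for *Hey1* and from 0.04 to 1.07 for *Heyl*, and neither passed in any of these fits. *Hes1* had the opposite order within L-MSCs, being highest in replicate 2, where *Hey1* and *Heyl* were lower than in replicate 1.

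Immediate-early genes, which cells switch on within minutes of a stimulus and which tissue digestion is known to induce, also differed between replicates. Of 28 such genes tested, 24 were higher in replicate 1 than in replicate 2 in both groups, where the share over all genes tested was 26.9%. Their summed level was 11067 and 7022 FPKM in L-MSCs and 5188 and 2226 FPKM in control MSCs. Between the groups 5 of the 28 rose in L-MSCs and 0 fell, against 2.43% and 2.65% over all genes tested. *Hey1* was higher in replicate 1 by 0.82 in L-MSCs and by 0.81 in control MSCs on the scale of log2(FPKM + 1), and *Heyl* by 1.03 and by 0.82. The immediate-early gene with the largest excess of L-MSC replicate 2 over replicate 1 was *Ier2*, at 77.8 and 217.8 FPKM in L-MSCs and at 51.1 and 24.7 FPKM in control MSCs, named after its values were seen. *Ier2* was the only one of the 28 with its highest scaled value in L-MSC replicate 2, the library in which *Hes1* was high. What part these differences had in the *Hes1*, *Hey1* and *Heyl* values was not tested.

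**Figure D4:**
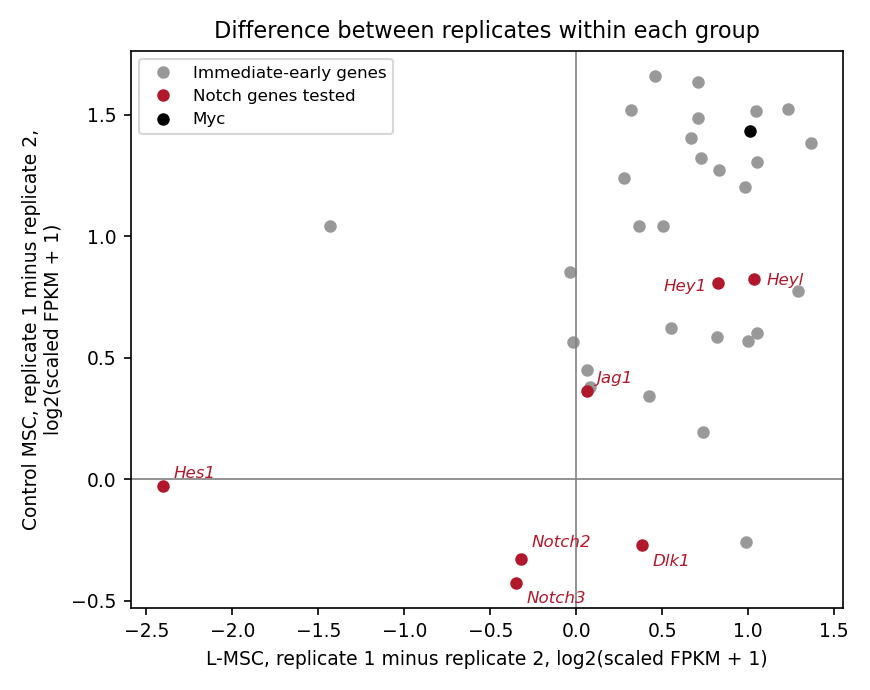
Replicate 1 minus replicate 2 on the scale of log2(scaled FPKM + 1), in L-MSCs (horizontal) and in control MSCs (vertical), for the 7 Notch genes tested (red), the 28 immediate-early genes (grey) and *Myc* (black). *Hey1*, *Heyl* and *Jag1* lie above 0 on both axes with 24 of the 28 immediate-early genes, and *Hes1* lies alone at -2.40 on the horizontal axis.

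Outside these 9 genes, 87 other genes of the pathway were measured and 63 were tested. Of the 63, 1 rose and 0 fell in L-MSCs, against 2.43% and 2.65% over all genes tested, and the median log2 fold change was -0.01, both over the 63 and over all genes tested. Both L-MSC libraries lay above both control libraries for 22 of the 63 and below them for 16, where the shares over all genes tested were 24.8% and 27.2%. The gene that rose was *Myc*, a growth regulator that Notch induces in T cells and that many growth signals induce. It was at 309.7 and 157.9 FPKM in L-MSCs and at 84.2 and 31.1 FPKM in control MSCs, which limma gave as 1.99 on the log2 scale (standard error 0.44, adjusted p = 0.0316). *Myc* was higher in replicate 1 in both groups, as most immediate-early genes were. Without control replicate 2 its log2 fold change was 1.25 and did not pass (adjusted p = 0.0716), and it did not pass either without a variance trend (adjusted p = 0.0939), in a robust fit (0.146) or when all genes above 0 were kept (0.267). When all genes above 0 were kept, no gene at all passed. The target genes *Cdkn1a* and *Bhlhe40*, the most abundant ones not called, had log2 fold changes of -0.42 and -0.08 (adjusted p = 0.368 and 0.917). *Hey2* was below 0.3 FPKM in all 4 libraries, and *Hes2* and *Hes3* were listed at 0 in all 4.

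Secreted matrix proteins that are reported to bind Notch or Jagged1 were the most abundant genes in the list of ligands. *Mfap5*, a microfibril protein, was at 226.6 and 308.0 FPKM in L-MSCs and at 502 and 452 FPKM in control MSCs. The groups did not overlap, and its log2 fold change of -0.95 had an adjusted p = 0.0368 from limma, past the p threshold and just short of the fold threshold. It passed both thresholds without L-MSC replicate 2 (-1.15, adjusted p = 0.0127), and it missed the p threshold without any 1 of the other libraries (adjusted p from 0.0594 to 0.178) and with no scaling (0.0621), TPM (0.0643) and quantile normalization (0.0577), without the variance trend (0.116) and without the filter (0.196). *Ccn3*, a matricellular protein named here after its values were seen, was at 77.9 and 88.6 FPKM in L-MSCs and at 134.7 and 141.2 FPKM in control MSCs, a log2 fold change of -0.83 (adjusted p = 0.0413 from limma). Its adjusted p was from 0.0524 to 0.178 when 1 library was left out, and it also missed the p threshold with no scaling (0.0693), TPM (0.0691), quantile normalization (0.113), a pseudocount of 0.1 (0.0524), no variance trend (0.131) and no filter (0.167). Without the filter, no gene at all passed the p threshold. Genes past the p threshold alone and lower in L-MSCs made up 3.23% of all genes tested. *Mfap2*, the other microfibril protein, was at 290.6 and 221.8 FPKM in L-MSCs and at 190.1 and 97.2 FPKM in control MSCs. Its log2 fold change, 0.79, missed both thresholds (adjusted p = 0.178 from limma), and without control replicate 1 it passed both (1.28, adjusted p = 0.00696).

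The machinery that glycosylates, cuts and transmits Notch was expressed in both groups. Of its genes limma called 0 in either direction, where the shares over all genes tested were 2.43% higher and 2.65% lower. Of 10 genes of glycosylation 9 were tested, with log2 fold changes from -0.68 to 0.38. *Poglut1* and *Poglut2*, which encode glucosyltransferases, had log2 fold changes of -0.37 and 0.12 (adjusted p = 0.436 and 0.843 from limma). For cleavage 9 of 10 genes were tested, with log2 fold changes from -0.42 to 0.18. The γ-secretase subunit gene *Psenen* averaged 197 ± 5.93 FPKM in L-MSCs and 203 ± 33.6 FPKM in control MSCs (SD, n = 2 each), with an adjusted p = 0.763 from limma. *Ncstn*, another subunit gene, averaged 99.7 ± 11.8 FPKM in L-MSCs and 85.4 ± 1.99 FPKM in control MSCs (adjusted p = 0.803 from limma). Of 22 genes of the transcription complex 21 were tested, with log2 fold changes from -0.71 to 0.86, and both L-MSC libraries were above both control libraries for 9 of them and below for 4 (24.8% and 27.2% over all genes tested). *Rbpj* itself was at 24.1 and 30.2 FPKM in L-MSCs and at 22.0 and 24.6 FPKM in control MSCs, a log2 fold change of 0.11 (adjusted p = 0.832), and *Hdac1* and *Snw1*, the most abundant of the list, had -0.30 and 0.21 (adjusted p = 0.458 and 0.636). *Maml2*, a Mastermind coactivator named with *Rbpj* after the values were seen, was at 15.0 and 11.7 FPKM in L-MSCs and at 6.52 and 6.17 FPKM in control MSCs, 0.86 higher on the log2 scale, which missed both thresholds (adjusted p = 0.109). Of 20 genes of trafficking and turnover 15 were tested, with log2 fold changes from -0.72 to 0.96 and 7 above and 2 below in this sense, and the most abundant, the ubiquitin ligase genes *Nedd4* and *Dtx3*, had 0.31 and 0.30 (adjusted p = 0.420 and 0.450).

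**Figure D5:**
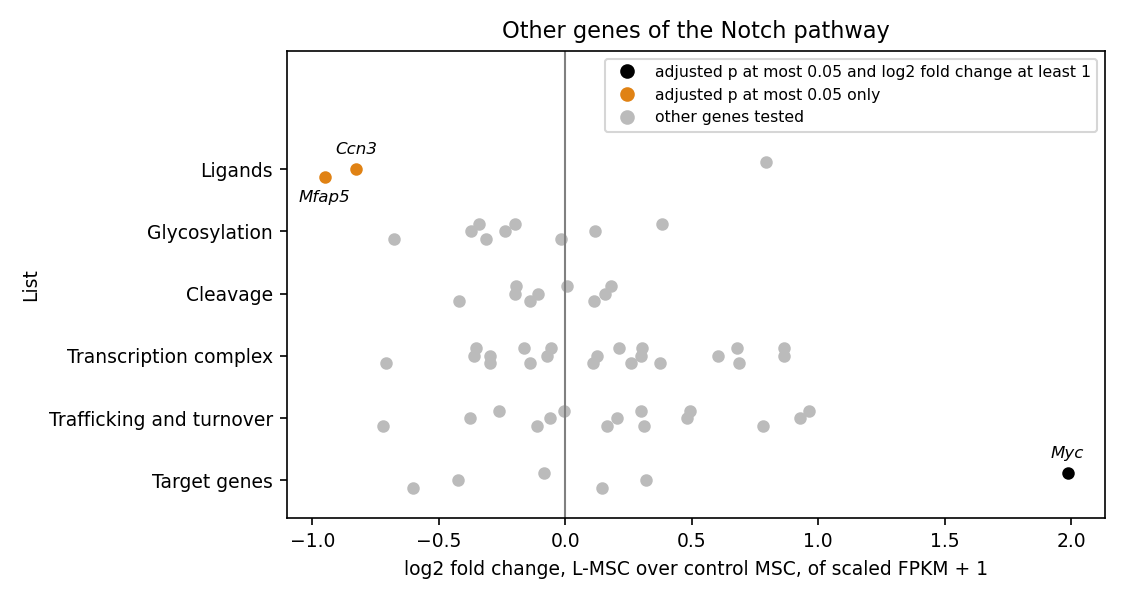
Log2 fold change of L-MSCs over control MSCs, on the scale of scaled FPKM + 1, for the 63 other pathway genes tested, with 1 point per gene and 1 row per list (the vertical offset within a row has no meaning). *Myc* at 1.99 is the only gene past both thresholds (black), and *Mfap5* and *Ccn3* at -0.95 and -0.83 pass the p threshold alone (orange).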

How the data were processed

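RNA of sorted MSCs was amplified with a SMART-Seq kit and sequenced at BGI as paired ends. The authors filtered reads with SOAPnuke and aligned them to GRCm38.p6 with HISAT2 2.0.4 and, for genes, Bowtie2 2.2.5. FPKM came from RSEM 1.2.8, per the submitters' processing notes. The deposited FPKM have 2 decimals and show summed values that differ between libraries. The table also holds the authors' own log2 ratio of the groups, which was not used. FPKM are not counts, so that the count test of the paper was replaced: values were divided by median-of-ratios factors (0.957 to 1.05), genes reaching an FPKM of 1 in 2 or more of the 4 libraries were kept, and log2(FPKM + 1) was compared with limma 3.58.1 in R 4.3.3 (eBayes with trend). A fold change on this scale understates the change of low genes. The labels do not say that replicates share mice or days, and the p-values measure the spread between pools.

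The 9 genes and the lists were chosen with earlier results of these data known. Named genes were all 9, up to 4 called genes and the 2 most abundant others of each pathway list, and, for any called gene of the 9, its nearest neighbors, of which there were none. All other genes named, those of the marker lists included, were chosen after their values were seen. *Hes5* and *Nrarp* were not analysed here. Positions and promoters are from RefSeq GRCm38.p6. As alternatives, scaling was omitted or replaced by TPM or quantile normalization, the pseudocount was set to 0.1 or 0.5, the filter was dropped or raised to an FPKM of 5, and the variance trend or the fold threshold was dropped. A robust fit, a replicate block and fits without each library in turn were also run.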

Additional observations from a re-analysis of the deposited data

How the results depend on the processing

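None of the 9 Notch genes was called with limma with no scaling, TPM, quantile normalization, either other pseudocount, a robust fit or no fold threshold, or without the variance trend or the filter. At a minimum FPKM of 5 only *Notch2* was tested, and it was not called. With the replicate number as a block 2 were called higher, *Hes1* (adjusted p = 7.25e-05) and *Dlk1* (adjusted p = 0.0212), in a fit with 1 residual degree of freedom that called 509 of 11056 genes higher. For *Hes1*, replicate 1 minus replicate 2 was -2.40 in L-MSCs and -0.03 in control MSCs. A block common to both groups could take up only part of this gap. The standard error of *Hes1* fell from 0.61 to 0.34. With 1 residual degree of freedom, its p in this fit rests mainly on the spread of other genes. The replicate numbers are not stated to pair the pools, and same-numbered libraries deviated from their group means with a correlation of 0.101 across genes. Leaving out 1 library gave from 0 to 1 of the 9 higher. Among the 7 genes tested, over the alternatives that gave a value, the direction turned only for *Notch3*, from -0.38 without control replicate 1 to 0.013 without L-MSC replicate 1. Of the other pathway genes, the count higher was 0 with no filter, 0 with no variance trend, 0 in a robust fit and from 0 to 2 with 1 library left out, and the count lower was 2 with no fold threshold and from 0 to 1 with 1 library left out. Over all genes, against 269 higher and 293 lower, there were 148 and 128 with no variance trend and 0 and 0 with no filter, where 2355 had an unadjusted p of at most 0.05. The count lower was 194 with no scaling and 182 with TPM. With 1 library left out 192 to 436 were higher and 196 to 546 lower, the most of each without L-MSC replicate 2. No scaling moved the median log2 fold change of all genes from -0.01 to 0.08. *Notch1* and *Lfng* had a value in 1 fit alone, and *Dlk1* had none without either L-MSC library. The cause of these differences between settings was not tested. The *Dlk1* difference, from 2 libraries a group and levels of a few FPKM, did not pass in the main fit, and why it did not was not tested.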

Other observations

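*Dlk1* is known as a marker of preadipocytes, and *Hes1*, *Hey1* and *Jag1* are studied in bone and cartilage, so markers of these lineages are given beside them. Over all genes tested 2.43% rose and 2.65% fell. Of 8 adipocyte markers 4 were tested and 2 rose, *Lpl* (log2 fold change 2.24, adjusted p = 0.00508 from limma) and *Fabp4* (2.19, adjusted p = 0.0246). *Adipoq*, a gene of mature adipocytes, had 0.24 (adjusted p = 0.842 from limma). *Cebpa*, also tested, lay the other way, with -0.39 (adjusted p = 0.687 from limma). Its level was low, at 0.05 and 1.08 FPKM in L-MSCs and at 1.49 and 0.41 FPKM in control MSCs. *Plin1* was at most at 0.09 FPKM and *Pparg* at most at 0.80 FPKM in any library. Of 8 osteoblast markers tested 2 fell and 0 rose, of 8 chondrocyte markers 1 fell and 0 rose, and of 6 tendon markers 3 fell and 0 rose. Among the 12 MSC markers, *Cxcl12* and *Lepr* rose and *Thy1* and *Cd34* fell. Of 4 erythroid markers tested, all of them hemoglobin genes, 4 fell. The summed level of the erythroid markers measured was 10.1 and 6.26 FPKM in L-MSCs and 239 and 150 FPKM in control MSCs. Whether any of these moved with the Notch genes was not tested, since 4 libraries are too few for a correlation.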
